A study of Mus musculus with 6 samples.

Results

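The bile acid receptor FXR was mapped by ChIP-seq in male mouse liver, and the regions described here are its peaks at the ends of genes. They are the peaks whose annotation by the authors falls in the TTS class (transcription termination site, from 100 bp before to 1 kb after the end of a transcript) or in the 3′ UTR class (the untranslated part of the last exons, upstream of the stretch that counts as TTS). The WT list held 371 TTS and 207 3′ UTR peaks, 578 of 20040 peaks in all. The LKO list held 233 TTS and 121 3′ UTR peaks, 354 of 12495. Matching the lists by an overlap of 1 bp or more gave 656 distinct regions, of which 276 were gene-end peaks in both lists. For comparison, 49.5% of all WT peaks and 79.4% of all LKO peaks met a peak of the other list. Only the annotation class chose them, so their levels, overlap, sequence and neighbours were free to vary.

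WT mice were Bcl6 fl/fl, with loxP sites flanking part of Bcl6, and LKO mice were Alb-cre, Bcl6 fl/fl. The floxed alleles and the C57BL/6 strain were thus common to both groups, and albumin-Cre removes Bcl6 from hepatocytes and leaves it in the other cells of the liver. FXR was immunoprecipitated in 2 libraries per genotype, and 1 further library per genotype was input, sheared chromatin that was not immunoprecipitated. The labels give no age, and they do not say whether the libraries of a genotype came from separate animals. The peak tables hold no readout of Bcl6 itself, so the deletion was not checked here.

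FXR (farnesoid X receptor) binds DNA mostly as a heterodimer with RXR. Its preferred site is an inverted repeat of the nuclear receptor hexamer AGGTCA with a single spacer base, called IR1. In liver it is switched on by bile acids and lowers their synthesis, largely through SHP, the product of Nr0b2, and it raises their export into bile. Receptors of this family bind enhancers as well as promoters, and an enhancer can lie past the end of the gene it serves or within the 3′ UTR of a neighbour. In compact gene clusters the end of a gene is also close to the start of the next. BCL6 is a transcriptional repressor, and the comparison of genotypes asks how FXR occupancy stands with and without it in hepatocytes.

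The IR1 sites of the gene-end peaks named below are shown first, because they are the DNA on which the comparison of classes turns. Each line gives a peak's gene end, its class, the position of the 13-base site on the plus strand of GRCm38.p6 (RefSeq; the same coordinates as mm10) and 8 bases either side. Capitals mark the site, which is the best match to AGGTCANTGACCT within 100 bp of the peak centre. The first 4 belong to peaks at high levels in both genotypes, the next 6 are the WT peaks of highest level with at most 1 mismatch in the 12 scored bases, then come 2 peaks found in the LKO list only, and the last 2 hold the same 13 letters.
Nr0b2 (TTS, chr4:133557507-133557519): ctgggtcaGGGTGACTGACCTgaagggtg
Slc12a4 (TTS, chr8:105942685-105942697): aggaaccaAGGCCACTGACCCctgccccc
Tomm40 (TTS, chr7:19701115-19701127): ctgcacagAGGCGAGTGACCTggagccac
Gmeb2 (3′ UTR, chr2:181253469-181253481): cctcctccTGGTCAGTGACCCtctggttc
4930448H16Rik (TTS, chr5:143235611-143235623): gagcggtcAGTTCAGTGACCTgagctgta
Neat1 (TTS, chr19:5824350-5824362): ggtgctgaAGGTCACTGAACTcaggaact
Cldn19 (3′ UTR, chr4:119259452-119259464): cagacgtaAGGACACTGACCTttagtgaa
Eef1a2 (TTS, chr2:181147206-181147218): tgtgacctAAGTCACTGACCTcctggctt
Lin52 (TTS, chr12:84532121-84532133): gtctgaaaAGGCCATTGACCTtcccacct
Ifit1bl2 (3′ UTR, chr19:34618357-34618369): tagggtggAGGTCATTGACCAgcaggttc
Fam160b2 (3′ UTR, LKO list, chr14:70584300-70584312): cccatcccTGGTCAATGACCTctctgccc
Slc7a11 (3′ UTR, LKO list, chr3:50370245-50370257): tggcaaggAGGTCATTGACCTtgtcctgg
Agap1 (TTS, chr1:89896064-89896076): gcctggacAGGTCAGTGTGCTctgggcct
Barhl1 (3′ UTR, chr2:28908216-28908228): ccatctgcAGGTCAGTGTGCTgcaggtgg

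Counting positions from 1 at the 5′ end of the site, the Nr0b2 site differed from the motif at A1G and C5G. Those of Agap1 and Barhl1 both carried A10T and C11G. The Slc7a11 site matched all 12 scored bases and was the only such site among the gene-end peaks of either list, while 46 of all WT peaks and 36 of all LKO peaks held one. It was singled out after its match was seen.

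The WT ChIP libraries held 19022618 and 2883717 tags and the LKO libraries 21287263 and 22637613, so WT replicate 2 stood apart as the shallowest. The inputs held 6964271 (WT) and 6935001 (LKO) tags. The authors called 1 list per genotype on its pooled replicates, so list membership could not be repeated without that library. The levels could. The median LKO minus WT differences, and the counts of higher and lower members over both classes, are also given without it. The split by quartiles of level was not repeated without it. Among cell type markers, 8 of 8 hepatocyte markers had an FXR peak assigned to them in each list and 0 of 4 Kupffer cell markers did in either. Of 4 markers each, 4 endothelial, 2 cholangiocyte and 2 stellate cell markers had a WT peak, against 3, 1 and 2 in LKO. Across all 26180 RefSeq genes, 9658 had some WT peak and 7440 some LKO peak. These few markers therefore do not identify the cells that were bound. In whole liver, fewer cells of a type and less binding per cell cannot be told apart.

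Gene ends took a similar small share of FXR binding in both genotypes. TTS peaks were 1.85% of the WT list (95% Wilson interval 1.67% to 2.05%) and 1.86% of the LKO list (1.64% to 2.12%). The 3′ UTR peaks were 1.03% (0.902% to 1.18%) and 0.968% (0.811% to 1.16%). Together they made 2.88% of WT and 2.83% of LKO peaks, and the intervals of the genotypes overlapped for each class. All intervals here cover counting error over peaks only.

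Set against the length of genome on offer, end windows held more peaks than the bulk of the genome and far fewer than promoters. By position alone, windows from 100 bp before to 1 kb after RefSeq transcript ends, without those in promoters, held 13.5 WT peak centres per Mb (exact Poisson interval 12.2 to 14.9), and last-exon 3′ UTRs 10.0 per Mb (8.77 to 11.4). The genome outside promoters, ends and 3′ UTRs held 6.64 per Mb and promoters 76.1. In LKO the values were 8.41, 5.93, 4.15 and 46.9 per Mb. Relative to the rest of the genome, the end windows were thus 2.03-fold denser in both genotypes and 3′ UTRs 1.51-fold (WT) and 1.43-fold (LKO) denser.

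That density was not a peak centred on the gene end. Around the ends of 14934 genes of at least 10 kb, counting only positions over 1 kb from any transcription start site (TSS), WT density was 9.44 per Mb in the last 500 bp of the gene and 12.02 in the first 500 bp beyond it. Across all 500-bp bins within 10 kb of the end it ran from 9.05 to 15.1 per Mb. In LKO the corresponding values were 6.70 and 7.05, within a range of 5.13 to 9.83.

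**Figure D1:**
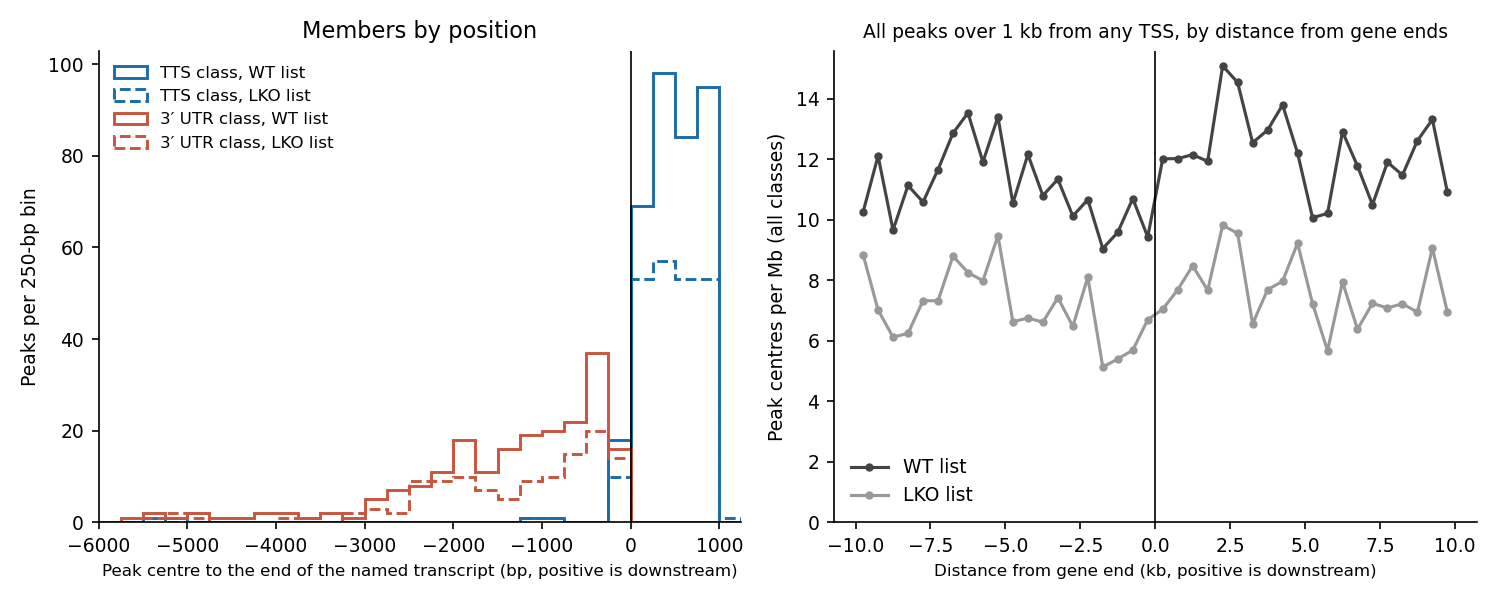
Left, number of gene-end peaks per 250-bp bin by the distance of their centre from the end of the transcript named in the annotation (bp, positive is downstream), for each class and list; 1 WT peak of the 3′ UTR class and 1 TTS peak lie outside the axis. Right, peak centres of all classes per Mb in 500-bp bins around 14934 gene ends, over 1 kb from any TSS; WT bins run from 9.05 to 15.1 and LKO bins from 5.13 to 9.83, and the bins next to the end are not the highest of either list.

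Within their window the TTS peaks were spread widely. The named transcript was found in RefSeq for 575 of 578 WT and 352 of 354 LKO peaks. The median TTS centre lay 490 bp past the end in WT (10th to 90th percentile, 78.7 to 905 bp) and 469 bp past it in LKO. From 0 to 1 kb past the end, successive 250-bp bins held 69, 98, 84 and 95 WT peaks and 53, 57, 53 and 54 LKO peaks, and 18 WT and 10 LKO peaks lay in the 100 bp before it. The distance from the RefSeq end fell outside the window for 4 peaks of each list.

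Peaks of the 3′ UTR class sat inside long UTRs. No background set of UTRs was measured, and the class leaves out the last 100 bp of each. The median UTR was 2332 bp long in WT and 2264 bp in LKO, and the median peak lay 768 bp (WT) and 716 bp (LKO) past the stop codon, 44.0% and 42.4% of the way along. Their transcripts were longer (median 26519 bp in WT) than those of TTS peaks (11526 bp). The TTS class included 65 WT and 49 LKO ends of noncoding transcripts, 23 and 17 of them microRNA genes, and 29 and 22 of its transcripts were shorter than 1 kb. For such a transcript the end lies close to the start, and 53 WT TTS peaks (14.3%) and 30 LKO TTS peaks (12.9%) were within 1 kb of some TSS, against 1 peak of the 3′ UTR class in each list.

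A gene-end peak often carried the name of another gene. The authors assigned each peak to its nearest TSS, and in WT this was the gene that ended there for 281 of 569 peaks with a RefSeq match (49.4%, 45.3% to 53.5%), the next gene downstream for 221 (38.8%) and another gene for 67. In LKO the counts were 187, 128 and 36 of 351. The share assigned to the ending gene was 52.7% for TTS and 43.4% for 3′ UTR peaks in WT, with overlapping intervals (47.6% to 57.8% and 36.8% to 50.3%). The next gene ran in the same direction past 303 of 575 WT ends (52.7%, 48.6% to 56.7%), close to the 53.5% of all RefSeq genes, and toward the end past the other 272.

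The highest levels at gene ends in both lists were at TTS peaks. A level here is the deposited tag value, read as log2. Because each table was normalized on its own, a relative level is that value minus its library's median over all 9918 WT peaks that overlap an LKO peak. The strongest gene-end peak of the WT list lay 216 bp past the end of Zfp36 (chr7:28376463-28376673), which encodes tristetraprolin, a protein that speeds decay of AU-rich mRNAs. Its relative levels were 3.43 and 3.92 in the WT libraries and 3.68 and 3.79 in LKO. The LKO minus WT difference of 0.055 was smaller than the replicate SD of 0.25.

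Second came Nr0b2 (chr4:133557486-133557696), with its peak 905 bp past the gene end. It lay 4215 bp from the Nr0b2 TSS, and both lists also held a peak in the Nr0b2 promoter. Relative levels were 3.20 and 3.81 in WT and 3.23 and 3.50 in LKO, a difference of -0.14 with a replicate SD of 0.33, so the genotypes overlapped. By level it stood at percentile 99.9 among WT peaks and 99.6 among LKO peaks. Its input value was 1.30 (log2) in WT and 0.50 in LKO, against ChIP values of 8.21 and 9.34 in WT.

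Fermt1, which encodes the integrin adaptor kindlin-1, had a TTS peak 589 bp past its end (chr2:132903485-132903695) that the authors assigned to Lrrn4, the next gene. It gave 3.10 and 3.23 in WT and 3.19 and 3.40 in LKO. The peak 250 bp past Ccnd1, the gene of cyclin D1 (chr7:144929576-144929786), gave 3.02 and 3.28 in WT and 3.25 and 3.15 in LKO. In both the genotypes overlapped, and at Ccnd1 the LKO input value of 3.05 was above the 95th percentile of its list (2.49).

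Of the 5 strongest shared TTS peaks, Tmem50a was the exception. Its peak, 401 bp past the end (chr4:134897343-134897553) and 1677 bp from the facing end of Rhd, gave 3.28 and 2.85 in WT and 0.54 and 0.80 in LKO. The difference of -2.40, with a replicate SD of 0.25, ranked second lowest of all 9918 shared peaks. By level the peak stood at percentile 99.6 among WT peaks and 78.6 among LKO peaks. The input values were 0.13 and 0.069, and the WT and LKO centres were 51 bp apart.

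The strongest shared peaks in 3′ UTRs were lower than those of the TTS class. The highest, in Whamm (chr7:81596232-81596442), a factor that promotes actin assembly, gave 2.45 and 2.51 in WT and 2.77 and 2.59 in LKO. Gmeb2 (chr2:181253371-181253581), a DNA-binding protein of glucocorticoid modulatory elements, gave 2.10 and 2.51 in WT and 2.32 and 2.37 in LKO. The LKO values of Whamm lay above both WT values, by 0.20 on average, and those of Gmeb2 lay between them.

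Cab39l (chr14:59547649-59547859), a scaffold of the LKB1 kinase, gave 1.88 and 2.24 in WT and 2.27 and 2.28 in LKO. Cpsf4l (chr11:113698188-113698398) gave 2.02 and 1.59 in WT and 1.92 and 2.18 in LKO. Both LKO values lay above both WT values at Cab39l and not at Cpsf4l.

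As groups, gene-end peaks were about as strong as FXR peaks in general. The median TTS level was 4.42 and 4.92 in the 2 WT libraries and 4.95 and 4.68 in LKO, beside 4.34, 4.91, 4.87 and 4.68 for all peaks of the same libraries. The 3′ UTR class had medians of 4.24, 4.75, 4.88 and 4.54. The mean of the replicates was 0.050 above all WT peaks for TTS and 0.15 below them for 3′ UTR peaks, differences small beside the WT quartiles of the members (3.95 to 5.36). Of the WT members, 63 (10.9%) were in the top 10% of their list, 47 of them TTS peaks and 16 3′ UTR peaks.

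Replicates differed as much at gene ends as elsewhere. The SD of replicate 2 minus replicate 1 was 0.59 over WT and 0.44 over LKO members, beside 0.59 and 0.45 over all peaks. Across the members, which are not independent replicates, the replicates correlated with Pearson's r of 0.865 in WT (n = 578) and 0.909 in LKO (n = 354). An input value above the 95th percentile of the list was found at 20 WT members (3.46%) and 17 LKO members (4.80%).

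About the same share of gene-end peaks as of all peaks was found in both genotypes. In WT, 190 of 371 TTS peaks (51.2%, 46.1% to 56.3%) and 97 of 207 3′ UTR peaks (46.9%, 40.2% to 53.7%) were overlapped by an LKO peak, 49.7% together (45.6% to 53.7%), beside 49.5% of all WT peaks. In LKO, 189 of 233 TTS peaks (81.1%) and 93 of 121 3′ UTR peaks (76.9%) were overlapped by a WT peak, 79.7% together (75.2% to 83.5%), beside 79.4% of all LKO peaks. The centres of shared pairs were a median of 16 bp apart. Of the shared WT peaks, 183 TTS and 88 3′ UTR peaks met a peak of their own class, and 11 met a peak outside both classes.

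Overlap followed peak level at gene ends as it did over the whole list. From the weakest to the strongest quartile of WT level, 15.3%, 35.3%, 56.0% and 91.5% of members were overlapped, beside 13.9%, 33.0%, 60.7% and 90.3% of all WT peaks. In LKO the shares were 56.0%, 76.7%, 92.1% and 94.3%, beside 57.5%, 75.4%, 88.1% and 96.5%. With both lists limited to the same number of strongest peaks, 67.2% of WT and 67.8% of LKO members overlapped.

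The strongest peaks without a partner were chosen by level, so a high place in their list follows from the choice. In WT they were the TTS peaks past Chn1os3 (chr2:73616798-73617008; relative levels 1.10 and 1.66), Nop16 (chr13:54583329-54583539; 1.26 and 0.97), a nucleolar protein gene, and Dhcr7 (chr7:143849073-143849283; 0.17 and 0.73). Dhcr7 encodes the reductase of the last step of cholesterol synthesis. In 3′ UTRs they were those of Rassf4 (0.63 and 0.51), Golga7b (0.44 and 0.61) and the Wnt co-receptor gene Lrp6 (0.27 and 0.36). By level these WT peaks stood between percentile 79.7 (Lrp6) and 93.5 (Chn1os3) of their list. The input value of Chn1os3, 1.84, was just below the 95th percentile of 1.85.

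In LKO the strongest TTS peaks without a WT partner were at Pisd-ps1 (1.54 and 2.15), Mir6940 (0.84 and 0.88) and the calcium-regulated transcription factor gene Nfatc2 (0.36 and 0.94). The Pisd-ps1 peak, at a transcribed pseudogene, had an input value of 5.30, far above the 95th percentile of 2.49. In 3′ UTRs they were Fam160b2 (1.85 and 1.84), the potassium channel gene Kcnh4 (0.23 and 0.72) and Mfsd6 (0.06 and 0.19). The input value of Kcnh4, 2.46, was just below that percentile, and that of Fam160b2 was 1.76. Fam160b2 (chr14:70584179-70584383) was at percentile 94.0 of LKO peaks, Kcnh4 at 74.4 and Mfsd6 at 63.5. The Fam160b2 site shown above differs from IR1 by A1T alone.

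**Figure D2:**
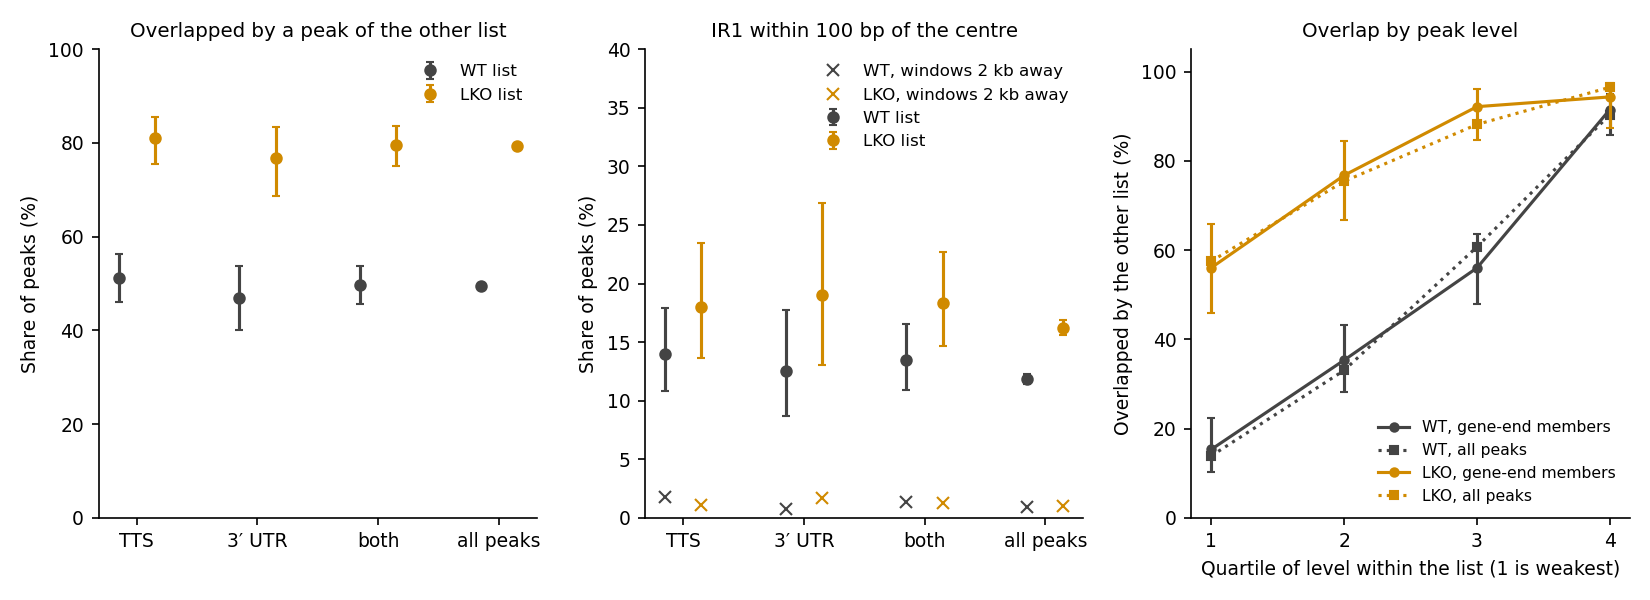
Left, share of peaks overlapped by a peak of the other list (%); centre, share with an IR1 of at most 2 mismatches within 100 bp of the centre (%), with crosses for windows 2 kb away; right, overlap by quartile of level. Points are shares, bars 95% Wilson intervals over peaks (in the right panel for gene-end members only), for the TTS class, the 3′ UTR class, both together and all peaks of the WT and LKO lists. The interval of each class covers the value of all peaks in the left and centre panels, and overlap runs from 15.3% to 91.5% of WT members across the quartiles.

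IR1 sites were about as frequent at gene ends as at FXR peaks elsewhere, and frequent in both classes. With at most 2 mismatches, an IR1 lay within 100 bp of the centre of 52 WT TTS peaks (14.0%, 10.9% to 17.9%) and 26 WT 3′ UTR peaks (12.6%, 8.72% to 17.8%), beside 11.8% of all WT peaks. In LKO it was found at 42 TTS peaks (18.03%, 13.6% to 23.5%) and 23 3′ UTR peaks (19.0%, 13.0% to 26.9%), beside 16.2% of all LKO peaks. Windows of the same length 2 kb either side of the members held one in 1.38% (WT) and 1.27% (LKO) of cases. The sites were close to the middle, at a median of 14.5 bp from the centre in WT and 12 bp in LKO.

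In the TTS class the IR1 went with peaks found in both genotypes. Of the WT TTS peaks, 21.6% of those overlapped in LKO (16.3% to 28.0%) and 6.08% of those not overlapped (3.43% to 10.6%) held an IR1. In the 3′ UTR class the shares were 13.4% (8.002% to 21.6%) and 11.8% (7.04% to 19.2%). Over all WT peaks they were 16.6% and 7.16%. In the LKO list, 20.6% of shared TTS peaks (15.5% to 27.0%) and 6.82% of the 44 found in LKO alone (2.35% to 18.2%) held one. For LKO 3′ UTR peaks the shares were 17.2% (10.9% to 26.1%) and 7 of 28 (12.7% to 43.4%), beside 16.8% and 14.2% over all LKO peaks. Level moved with most of these shares as well. The IR1 share of WT TTS peaks ran from 3.66% in the weakest to 22.3% in the strongest quartile of the list, whereas the WT 3′ UTR shares were 14.5% (8 of 55) and 13.2% (5 of 38). In LKO the share rose in both classes, from 6.35% to 25.8% for TTS and from 10.7% to 26.9% for 3′ UTR peaks. The part of level in the IR1 shares was not tested.

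In the WT list, peaks with a close IR1 match were not among the strongest. The WT members with at most 1 mismatch numbered 12, and the highest of them, which ranked 100 among the 578 by level, past the noncoding RNA 4930448H16Rik and 415 bp from the Zfp12 TSS (chr5:143235473-143235683), gave 0.09 and 0.80 in WT and 0.83 and 0.49 in LKO. Neat1, the long noncoding RNA of paraspeckles, had a peak 359 bp past its end (chr19:5824244-5824454) with 0.29 and 0.08 in WT and 0.55 and 0.35 in LKO. The 3′ UTR peak of Cldn19, a tight junction claudin (chr4:119259369-119259579), gave -0.01 and 0.19 in WT and -0.43 and -0.78 in LKO. Both LKO values were thus above both WT values at Neat1 and below them at Cldn19.

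The peak at Eef1a2, a translation elongation factor, gave 0.10 and -0.40 in WT and 0.45 and 0.10 in LKO, and its WT input value of 2.28 was above the 95th percentile of 1.85. It lay 5465 bp before the RefSeq end of the transcript named, which is outside the window that defines its class. Lin52, a subunit of the DREAM cell-cycle complex, gave -0.20 and -0.13 in WT and -0.28 and -0.13 in LKO. Ifit1bl2, of an interferon-induced family, gave -0.42 and 0.25 in WT and had no LKO peak. The LKO peak in the 3′ UTR of Slc7a11, the cystine transporter gene, held the exact IR1 at levels of -0.57 and -1.06, percentile 21.2 of its list.

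Other motifs were scored for comparison, on both strands. A direct repeat of the hexamer with 1 spacer base (DR1, AGGTCANAGGTCA, at most 2 mismatches), the usual site of PPAR and HNF4 receptors, lay at 15.4% of WT and 12.1% of LKO members, beside 12.8% and 11.9% of all peaks and 3.37% and 3.25% of windows 2 kb from the members. The exact hexamer AGGTCA, which a perfect IR1 or DR1 contains, was at 42.4% and 46.9%, beside 40.3% and 41.3% of all peaks. TTCNNNGAA, the core spacing of BCL6 and STAT sites, was at 6.06% and 6.21%, beside 6.56% and 6.39% of all peaks and 5.02% and 5.37% of the windows. For that motif the intervals of members and windows overlapped.

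At peaks shared by the genotypes, gene ends as a whole stood at the same relative level in LKO as in WT. Over the 287 shared members the median LKO minus WT difference was 0.0022 (SD over members 0.55, range -2.40 to 1.52), beside 0.026 over all 9918 shared peaks. The TTS class was at -0.040 (n = 190) and the 3′ UTR class at 0.15 (n = 97). Without WT replicate 2 the values were 0.022 for both classes together, -0.027 for TTS and 0.14 for 3′ UTR peaks. No test was made between genotypes, because each table had been normalized on its own. On the deposited scale, without centring, the medians were -0.37 for TTS and -0.18 for 3′ UTR peaks, so the sign of the 3′ UTR value rests on the scale. Centring shifts all peaks of a library alike, so the gap between the classes is the same on both scales by construction.

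Counted peak by peak, both LKO values lay above both WT values at 76 of 287 shared members (26.5%) and below them at 77 (26.8%), beside 29.8% and 25.2% of all shared peaks. Of the TTS peaks, 42 (22.1%, 16.8% to 28.5%) were higher and 56 (29.5%, 23.4% to 36.3%) lower in LKO. Of the 3′ UTR peaks, 34 (35.1%, 26.3% to 45.0%) were higher and 21 (21.6%, 14.6% to 30.8%) lower. On the deposited scale, without centring, 10 TTS peaks were higher and 80 lower, and 22 and 29 of the 3′ UTR peaks, beside 12.9% higher and 37.3% lower of all shared peaks, so the split between higher and lower rests on the scale. The intervals of the classes overlapped for each direction on the centred scale, where 53.3% of members had values that did not overlap between genotypes, beside 55.1% of all shared peaks.

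The gap between the classes was widest in the weakest and the strongest quartile of level. In the weakest quartile of all shared peaks by mean relative level, the median difference was 0.56 over 26 3′ UTR peaks, 0.092 over 49 TTS peaks and 0.23 over all peaks. In the strongest quartile it was -0.12 over 54 TTS peaks, 0.048 over 20 3′ UTR peaks and 0.0061 over all peaks. There 24 of the 54 TTS peaks (44.4%) were lower in LKO, beside 28.7% of all shared peaks of that quartile.

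**Figure D3:**
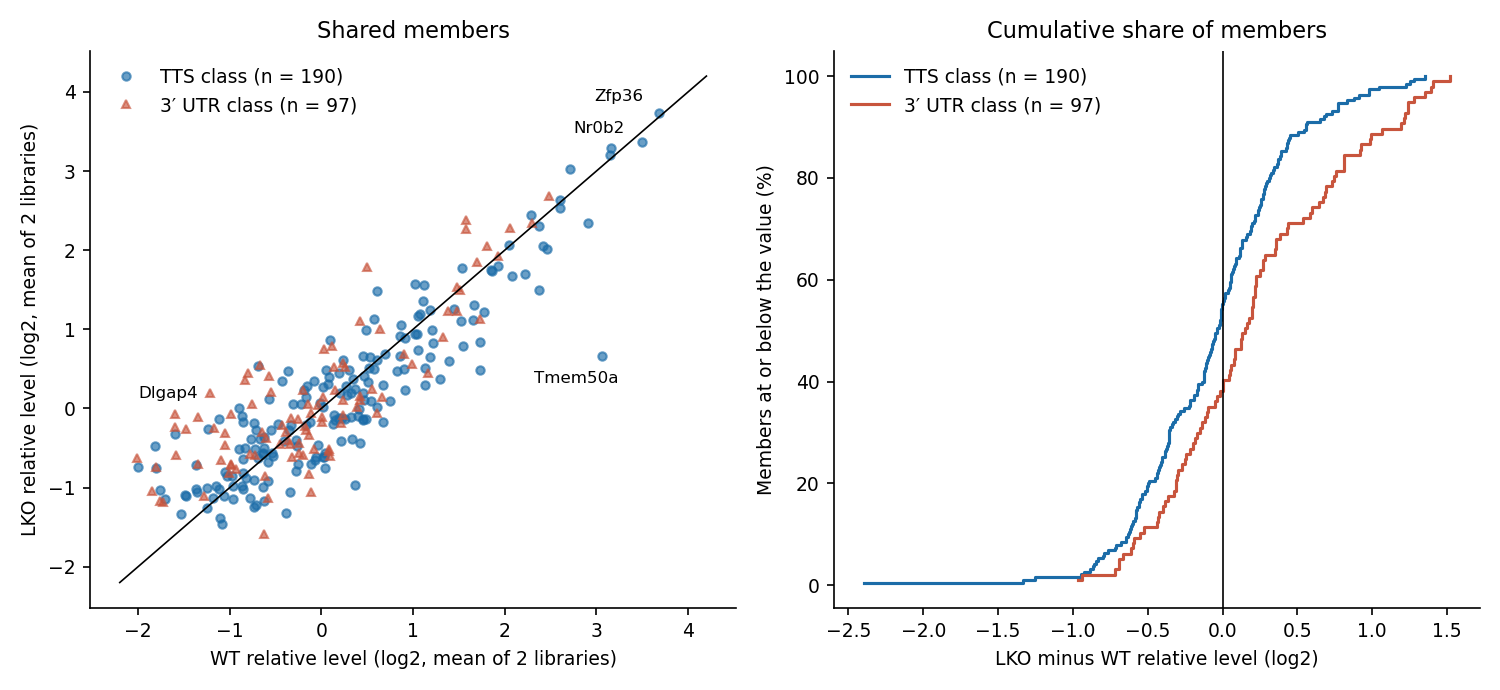
Left, relative level of the 287 shared members in LKO against WT (log2, mean of 2 libraries each; the line marks equal levels). Right, cumulative share of members (%) by LKO minus WT relative level (log2). The points lie along the line with Tmem50a far below it, and the curve of the 3′ UTR class (median 0.15) lies to the right of the TTS class (median -0.040).

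Members were next chosen as the extremes among peaks whose libraries did not overlap, and so without a test. The WT values enter the difference, so a choice by high difference favours low WT levels, and by low difference high ones. Those with the highest differences were all weak in WT, at percentile 29.3 of the list or below. At TTS peaks they were past Shc4, a signalling adaptor (chr2:125626702-125626912; -1.59 and -2.04 in WT, -0.10 and -0.84 in LKO), the adrenergic receptor gene Adra2b (chr2:127367793-127368003; -1.73 and -1.47 in WT, -0.44 and -0.20 in LKO) and Pgrmc2 (chr3:41065449-41065659). The WT values of Pgrmc2 were far apart, at -1.05 and -2.94, and the LKO values were -0.57 and -0.92. At Adra2b the LKO input value was 1.62, against -0.55 in WT.

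In 3′ UTRs the highest differences were at Dlgap4 (chr2:156763260-156763470), Stxbp5 and Barhl1. Dlgap4 gave -1.19 and -2.00 in WT and -0.24 and 0.09 in LKO, the highest difference of any shared gene-end peak (1.52), with a replicate SD of 0.44. Stxbp5, the SNARE regulator tomosyn, gave -0.77 and -1.65 in WT and -0.01 and 0.40 in LKO. Barhl1, a homeobox gene of the nervous system, gave -1.58 and -2.45 in WT and -0.04 and -1.21 in LKO. Both Stxbp5 and Barhl1 held an IR1 with 2 mismatches.

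The members with the lowest differences stood between percentile 52.3 (Cpn2) and 99.6 (Tmem50a) of WT peaks. Beside Tmem50a, the TTS peaks were at 4933411K16Rik (chr19:42054512-42054722; 0.16 and 0.56 in WT, -1.41 and -0.53 in LKO) and Agap1, a GTPase-activating protein of Arf (chr1:89895930-89896140; 1.88 and 1.59 in WT, 0.30 and 0.66 in LKO). In 3′ UTRs they were Cpn2, the regulatory subunit of plasma carboxypeptidase N (chr16:30258565-30258775; -0.64 and -0.60 in WT, -1.54 and -1.63 in LKO), Brap and Abca9. Brap gave -0.29 and 0.06 in WT and -1.18 and -0.93 in LKO, and Abca9, an ABC transporter gene, 1.01 and 1.32 against 0.38 and 0.51. The Agap1 site shown above has the same letters as that of Barhl1, whose peak differed in the other direction.

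**Figure D4:**
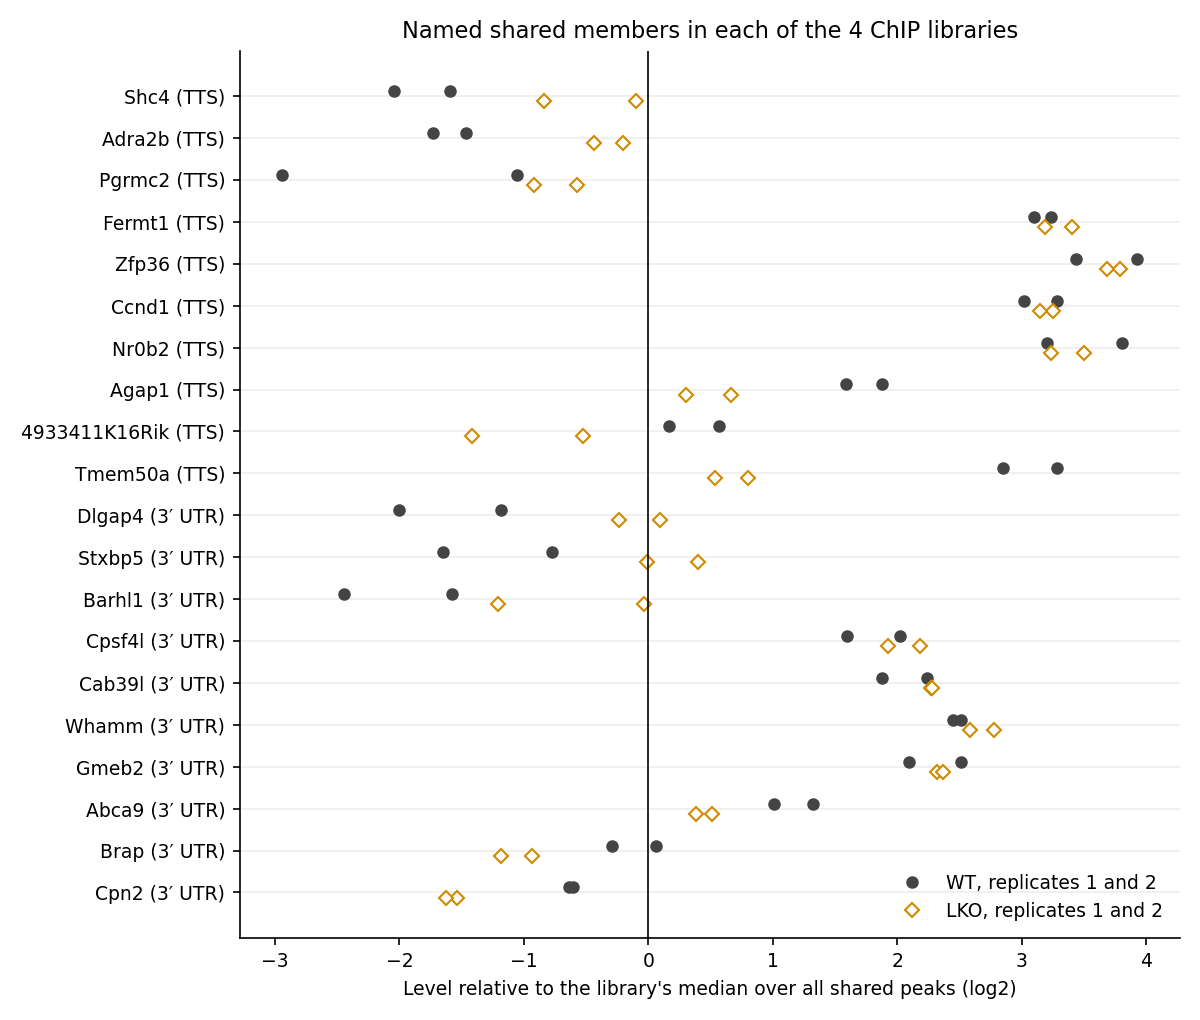
Level of each named shared member relative to its library's median over all shared peaks (log2, horizontal axis), with 1 point for each of the 4 ChIP libraries; filled circles are WT and open diamonds LKO. Zfp36, Nr0b2, Fermt1 and Ccnd1 lie above 3 in all 4 libraries, and Tmem50a lies near 3 in WT and below 1 in LKO.

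Of all 26180 RefSeq genes, 2.09% had a WT peak at their own end and 1.31% an LKO peak, and of the 9658 genes with any WT peak 5.65% had one at the end. The genes of the lists below are counted beside these shares, and with 15 to 38 genes in a list nothing is read from the small counts.

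In the list of bile acid transport, synthesis and signalling, 1 of 30 genes had an FXR peak at its own end in WT (3.33%). A WT peak of some class was found at 29 of the 30, and likewise at most genes of the other lists. It was found at 20 of 20 drug metabolism, 15 of 15 glucose and 35 of 38 plasma protein genes. For the lipid and lipoprotein list it was 31 of 35, and for BCL6 and growth hormone 12 of 16. Across all 26180 RefSeq genes it was 9658. At or next to the bile acid genes lay 2 gene-end peaks. One was the Nr0b2 peak. The other lay in the 3′ UTR of Pcyt1a, an enzyme of phosphatidylcholine synthesis, 513 bp from the facing end of Slc51a, which encodes the alpha subunit of the basolateral bile acid exporter (chr16:32472628-32472838). It was weak, at -1.78 and -2.06, and was not in the LKO list, while Pcyt1a had a promoter peak in both.

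Of the 35 genes in the lipid and lipoprotein list, 3 had a WT peak at their own end (8.57%). With peaks at a neighbour's end that were assigned to a list gene, 8 WT gene-end peaks belonged to the list, 4 of them shared. The strongest lay past the end of the potassium-chloride cotransporter gene Slc12a4 (chr8:105942592-105942802), 705 bp downstream of the TSS of Lcat, which esterifies cholesterol on HDL. It gave 2.40 and 2.81 in WT and 2.60 and 2.68 in LKO. Its WT input value of 1.89 was just above the 95th percentile. The peak past Tomm40 (chr7:19701023-19701233) lay 1940 bp upstream of the Apoe TSS and gave 1.88 and 1.96 in WT and 1.84 and 1.76 in LKO. The end of Slc12a4 lies 188 bp before the start of Lcat and that of Tomm40 2125 bp before the start of Apoe. The LKO minus WT differences of the 2 peaks were 0.035 and -0.12.

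At Sdc1, a proteoglycan that takes up remnant lipoproteins, the peak 235 bp past the end gave 0.57 and 0.44 in WT and 0.30 and 0.38 in LKO. At Angptl4, an inhibitor of lipoprotein lipase, it gave -0.23 and 0.53 in WT and 0.05 and -0.34 in LKO. The other 4 were in WT alone, past Apoa1 itself (-0.55 and -1.32), at Tom1l2 next to Srebf1 (-1.38 and -2.02) and, upstream of the Apoa1 TSS, in the 3′ UTR (-0.51 and -0.50) and past the end (-0.46 and -0.44) of Sik3. Among the 4 shared peaks of the list there were thus 2 peaks lower in LKO (Tomm40 and Sdc1), 0 higher and 2 overlapping. Over all shared peaks 25.2% were lower and 29.8% higher, and nothing is read from so few.

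The remaining lists are given by gene. Of 38 plasma protein genes, 5 (13.2%) had a peak at their own end in WT (C4b, C8a, C8b, F10 and Itih3). Of these, 2 were shared, C8a lower (-0.37) and F10 higher (0.32) in LKO, beside 25.2% lower and 29.8% higher of all shared peaks. The C8a input value was 2.29 in WT, above the 95th percentile of 1.85, and -0.031 in LKO. At F10 the input value was -0.31 in WT and 1.67 in LKO. Of 15 glucose genes, G6pc, the last enzyme of gluconeogenesis, had a peak 968 bp past its end (0.07 and 0.51) and Onecut1 one at its end (-1.46 and -1.02), both in WT alone. Of 16 genes of BCL6 and growth hormone signalling, Stat5b had a 3′ UTR peak (-0.37 and -0.09), and the end of Stat3 (-1.06 and -1.41) lay 1637 bp from the facing end of Stat5a, again in WT alone. None of 20 drug metabolism genes had a gene-end peak in either list.

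A few genes carried more than 1 gene-end peak, 27 in WT and 9 in LKO, from lists of 20040 and 12495 peaks. Klf15, a transcription factor of amino acid and glucose metabolism, had 3 in WT of which the 3′ UTR peak (-0.26 and -0.24) was shared with LKO (-0.23 and -0.64, at an LKO input of 1.61) and the 2 TTS peaks were not. Nfix, a nuclear factor I gene, also had 3 in WT, and 0 of them were in LKO. Klf15 and Nfix were named after these counts were seen. Over the whole lists, 49.5% of WT peaks and 79.4% of LKO peaks were overlapped by the other list. Mknk2, a kinase of the initiation factor eIF4E, Tsku, which encodes a secreted liver protein, Pgpep1, Jam2 and Usp7 had 2 in each list, all overlapped by the other list.

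Some genes with a gene-end peak also had a promoter peak, at a share whose interval reached down to that of genes with any peak outside a promoter. In WT, 97 of 546 such genes (17.8%, 14.8% to 21.2%) had a promoter peak, beside 15.1% of genes with any peak outside a promoter and 8.37% of all RefSeq genes. In LKO it was 47 of 343 (13.7%, 10.5% to 17.7%), beside 10.6% and 5.23%. The shares of the classes were nearly equal in WT, at 17.8% for TTS and 17.7% for 3′ UTR peaks. With peaks within 1 kb of the TSS counted in place of the promoter class, the shares were 28.4% beside 26.2% in WT and 19.5% beside 20.03% in LKO.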

How the data were processed

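Liver chromatin crosslinked with DSG and formaldehyde was immunoprecipitated for FXR, and single-end reads were aligned to mm10 by the authors with Bowtie 1.2 and processed with HOMER 4.10, per the submitters' processing notes. Per the file headers, HOMER pooled the 2 ChIP replicates per genotype, called factor-style peaks over input and kept those at an FDR of 0.05 and a log2 fold change of 1 (DESeq2). The deposited tag values are called counts in the headers but are not whole numbers and are partly negative. They were read as log2 values of the authors' DESeq2 step, normalized within each table, so no count test was possible. The unit was not checked, nor whether that step drew the values of a peak, input included, toward each other. The deposited fold changes and p-values are the authors' own comparison of ChIP with input and were not used. The deposited Peak Score, a signal of pooled tags per 10000000, and the deposited Focus Ratio, the fraction of tags on the expected side of the peak centre, were not reported.

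Members were the rows of the TTS and 3′ UTR annotation classes. Both members and gene lists were chosen with earlier results of these data known. Lists were matched at 1 bp of overlap. Levels were centred per library on the 9918 shared peaks; a member was called higher or lower when both LKO values lay beyond both WT values, with no test between genotypes. Genes were named by fixed rules: members of the bile acid list, the 5 strongest shared, the 3 strongest unmatched and the 3 most different members per class, the 6 strongest with an IR1 of at most 1 mismatch, and examples from the other lists; 1 member that these rules name is not reported here. The split by quartiles of level was chosen after seeing the data. RefSeq transcripts of GRCm38.p6 gave ends and sequences, and the authors' TSS distance was within 2 bp of RefSeq for 94.2% of WT and 92.3% of LKO members with a match. Functions were tested on simulated data. Python 3.11.15, pandas 2.3.3, numpy 2.4.6, scipy 1.17.1 and pysam 0.24.0 were used.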

Additional observations from a re-analysis of the deposited data

How the results depend on the processing

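The 197 alternatives left 140 values within the interval or replicate SD of the reported value, or for counts of higher and lower peaks within a fixed ratio of it, and moved 57. Limiting gene-end peaks to those over 1 kb from any TSS lowered their share of the WT list to 2.61%. Overlap became 67.2% (WT) and 67.8% (LKO) for lists of the same length, and in LKO 86.4% among peaks at or above the median level and 75.1% among peaks of ordinary input. The IR1 share fell to 2.08% (WT) and 3.67% (LKO) at 1 mismatch and was 25.4% for strong LKO members. The replicate SD of strong members was 0.46 in WT and 0.32 in LKO. Promoter peaks within 1 kb of the TSS were found at 28.4% of WT and 19.5% of LKO genes, beside 26.2% and 20.03% of genes with any peak outside a promoter, so the order turned in LKO.

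Without centring, the median LKO minus WT difference was -0.33 over both classes, -0.37 for TTS and -0.18 for 3′ UTR peaks, beside -0.30 over all shared peaks, and 32 members were higher and 109 lower in LKO, beside 12.9% and 37.3% of all shared peaks, so the sign of the 3′ UTR difference and the split of the calls rest on the scale. Leaving out 1 library at a time gave medians from -0.071 (without WT replicate 1) to 0.040 for both classes, -0.097 to -0.0046 for TTS and 0.090 to 0.17 for 3′ UTR peaks, 108 to 117 members higher (117 without WT replicate 2) and 103 to 119 lower (119 without WT replicate 1), beside 40.2% to 42.0% and 35.3% to 38.6% of all shared peaks, since a lone library is exceeded more easily. The split by level was chosen after seeing the data. In the weakest quartile the medians were 0.20 for both classes, 0.092 for TTS and 0.56 for 3′ UTR peaks, beside 0.23 over all shared peaks. In the strongest they were -0.087, -0.12 and 0.048, beside 0.0061. The TTS value thus turned sign in the weakest quartile, where the value over all shared peaks was also positive. No paired analysis was possible because the result comes from no test and the genotypes' tables were normalized separately. WT replicate 2, with 2883717 tags, limits the precision of the WT levels.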
